A study of Mus musculus with 8 samples.

Results

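The resistin-like family in the mouse consists of Retn, Retnla, Retnlb and Retnlg, and the 8 arrays of the series carried 5 probes for these 4 genes among 55681 distinct probes with 36161 gene names. The members were all non-control probes annotated with one of these symbols, and the family was chosen by the measured levels of Retnlb, which stood at 2 far-apart values over these 8 arrays. The levels of Retnlb are therefore a description here and carry no test. Family members are small secreted proteins rich in cysteine. Resistin itself is a hormone of fat cells in mice, and Retnlb encodes RELM-beta, a product of intestinal goblet cells that is known for its induction by bacterial colonisation and by type 2 cytokines. Retnla (RELM-alpha) is a widely used marker of alternatively activated macrophages, and Retnlg (RELM-gamma) is found in bone marrow and neutrophils.

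Gene expression was measured in whole small intestine of embryos at stage E18.5, with 4 control and 4 mutant arrays. Mutants carried 2 floxed Rfx6 alleles and Ngn3-cre, which drives recombination in endocrine progenitors. The product of Rfx6 is a transcription factor needed by endocrine cells. Control replicates 1, 3 and 4 carried 1 floxed Rfx6 allele and control replicate 2 carried 2. No control is labelled with Cre, so Cre itself and the loss of Rfx6 cannot be told apart. The exons that were floxed are not given in the labels, and for mutant replicates 2, 3 and 4 the titles, which say Rfx6, were followed over descriptions that name another Rfx gene. Each array came from an embryo with a number of its own, but litters are not given. The p-values set group differences against the spread between these samples and take the embryos as independent, which could not be checked.

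Levels are log2 processed intensity relative to the 75th percentile of the same array, so 0 is the level of that percentile and 1 unit is a doubling. That percentile lay between 788 and 1027 intensity units, and the scanner software called 59.7% to 69.9% of the probes of an array well above background, its own measure of detection. Of 25330 genes tested with limma, 15 (0.0592%) passed an adjusted p of 0.05 between mutant and control. Of these, 1 (0.00395%) was higher and 14 (0.0553%) were lower in mutants. The 4 mutant arrays did not overlap the 4 controls at 4.67% of genes. Mutant replicate 1 stood apart from the rest, with an average correlation across genes of 0.978 to its 7 fellow arrays, while theirs was 0.990 to 0.991, where genes are not independent replicates. It is 1 of the 3 arrays with high Retnlb.

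The probes of Retnlb, Retnla and Retnlg lie in this order on chromosome 16, in a stretch of 55.6 kb from the first to the last (build mm9). The Retnlb probe covers chr16:48818874-48818933, the Retnla probe chr16:48844447-48844506 and the Retnlg probe chr16:48874468-48874527. Both Retn probes lie on chromosome 8, probe 1 at chr8:3657312-3657371 and probe 2 at chr8:3659757-3659816. Whether a probe lies in an exon or UTR was not analysed here. Each probe has 60 bases, and 30 bases of each are shown because a signal in 1 member can be read only against how far its probe differs from those of its relatives. The stretches are written 5′ to 3′ on the + strand, and capitals mark the bases at which the Retnlb and Retnlg probes are identical in their best ungapped alignment.
Retnlb, chr16:48818879-48818908: GtTGAGAAaCcAatTTcaAAATGAtGAgcA
Retnlg, chr16:48874468-48874497: GcTGAGAAcCtAgcTTtgAAATGAaGActA
Retnla, chr16:48844447-48844476: gatgaatctaacaaaaactgcagtctcaat
Retn probe 1, chr8:3657312-3657341: aaagtgtgtcactgccagtgtgcaaggata
Retn probe 2, chr8:3659757-3659786: actcacgtgcgcgaatccacacacaagcac
In this window 20 of 30 bases are shared by the Retnlb and Retnlg probes. Over the whole probes 36 bases were identical in an overlap of 55, with no identical run longer than 6 bases. The Retnlb probe had 21 bases in common with Retnla and 21 and 22 with the Retn probes, each in its best ungapped alignment. Retnlb and Retnlg thus had the most alike pair of probes in the family, and their levels over the arrays are given next.

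Retnlb was high on control replicates 1 and 3 and on mutant replicate 1, and low on the other 5 arrays. The control levels were 4.96, -4.99, 4.67 and -6.17 in replicates 1 to 4. The mutant levels were 4.98, -5.11, -4.36 and -4.70. Each group thus held both levels: 2 of 4 controls and 1 of 4 mutants were high. The 3 high arrays lay within 0.317 of each other and the 5 low arrays within 1.81. Between the lowest high array, control replicate 3, and the highest low array, mutant replicate 3, there was a gap of 9.02, or 520-fold in processed intensity relative to the percentile. The same gap was 235-fold with the deposited values and 222-fold with normexp background correction.

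**Figure D1:**
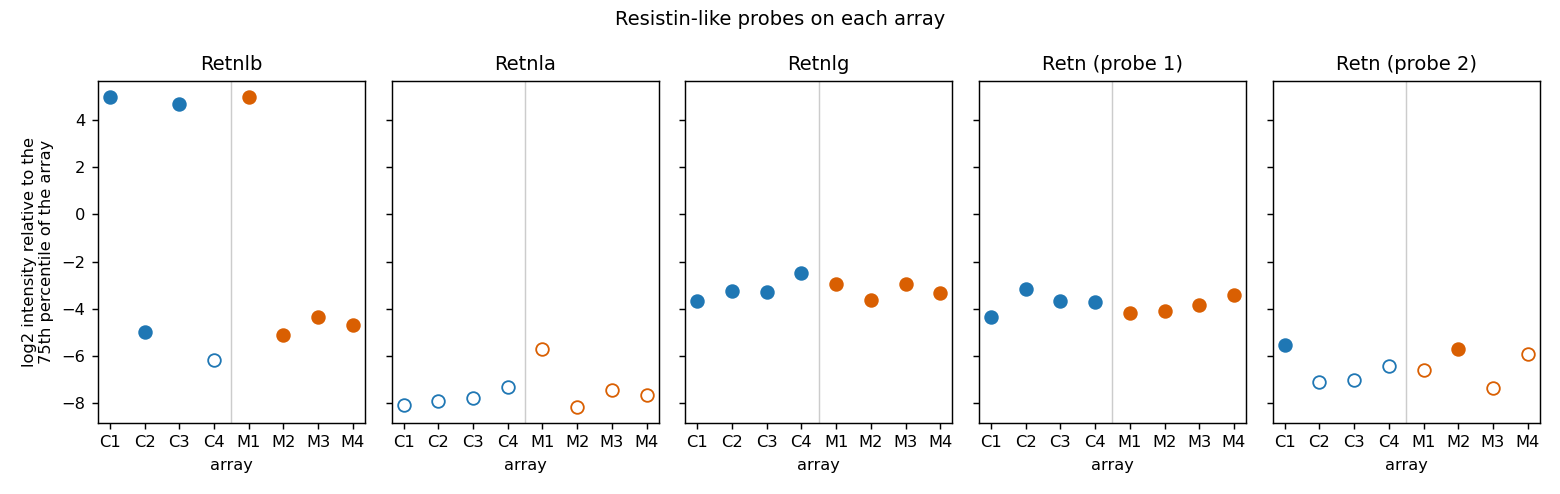
Log2 level of each resistin-like probe, scaled to its array's 75th percentile (vertical axis), on control arrays C1 to C4 (blue) and mutant arrays M1 to M4 (orange), with filled circles where the probe was well above background and open circles where it was not. Retnlb lies at 4.67 to 4.98 on C1, C3 and M1 and at -6.17 to -4.36 on the other 5 arrays, while no other member has such a step.

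The step was present in the raw signal. Mean pixel intensity of the Retnlb spot was 33165, 28053 and 27735 on control replicates 1 and 3 and mutant replicate 1. On the other arrays it was 78.1 to 121, against a local background of 49 to 51 there. The spot was not saturated or marked as an outlier on any array. It was well above background on 7 of the 8, all but control replicate 4, so that the low level was still measured in 4 of its 5 arrays. The authors' deposited value table held 33404, 26794 and 28141 for the high arrays and 78.1 to 114 for the low ones.

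Group means do not describe such a gene well. Retnlb averaged -0.38 ± 6.02 in controls and -2.30 ± 4.86 in mutants (SD, n = 4 each). The mutant minus control difference was -1.91 (SE 3.23), smaller than its standard error, and the groups overlapped. It ran from -4.34 without mutant replicate 1 to -0.13 without control replicate 1. Without control replicate 2, 3 or 4 it was -3.45, -0.23 and -3.84, and without mutant replicate 2, 3 or 4 it was -0.97, -1.23 and -1.11. Without mutant replicate 1 the span was 11.13 and the widest gap was still 9.02.

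Retnlg, the nearest tested relative on the chromosome, was detected on all 8 arrays and had no step between its levels like that of Retnlb. Control levels were -3.69, -3.23, -3.28 and -2.49, and mutant levels were -2.97, -3.64, -2.96 and -3.34. Its highest array was control replicate 4, where Retnlb was lowest, and the groups overlapped. The means were -3.17 ± 0.50 in controls and -3.23 ± 0.33 in mutants (SD, n = 4 each). The groups differed by -0.06 (SE 0.26, limma adjusted p = 0.959), and the direction turned without control replicate 4 (0.17) or mutant replicate 2 (0.08) and with the deposited values (0.0045).

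Retn probe 1 was also detected on all 8 arrays. The control levels stood at -4.34, -3.17, -3.65 and -3.70, and the mutant levels at -4.16, -4.09, -3.83 and -3.41. Control replicate 1 was the lowest array and control replicate 2 the highest, so the mutants lay within the control range. Means of -3.72 ± 0.48 and -3.87 ± 0.34 (SD, n = 4 each) gave a log2 difference between groups of -0.16 (SE 0.25, limma adjusted p = 0.876), which turned to 0.02 without control replicate 2. Retn probe 2 was well above background only on control replicate 1 (-5.53) and mutant replicate 2 (-5.71), and its other levels, from -7.35 to -5.91, were not.

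Retnla was not well above background on any array. Its nominal levels were -8.05, -7.92, -7.77 and -7.30 in controls and -5.68, -8.17, -7.42 and -7.63 in mutants. The highest value belonged to mutant replicate 1, and it too was below the detection call. Retnlb apart, the test thus covered 2 genes, Retn and Retnlg, of which 0 passed the threshold (0.0592% of all genes did) and 0 had groups that did not overlap (4.67%).

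Against the rest of the array, the spread of Retnlb over the 8 arrays was 11.15 from lowest to highest. Its lowest array, control replicate 4, was not well above background, so 11.15 runs to an undetected level, and the lowest detected level was -5.11, on mutant replicate 2. Median span over the 25330 genes tested was 0.607. Of the 25311 tested genes with a value on all 8 arrays, 5759 (22.8%) spanned at least 1. A larger span was found for 1 tested gene, a probe named XIST (12.13), which reads the X-inactivation transcript. Retnlg and Retn probe 1 spanned 1.20 and 1.16. The widest gap between neighbouring arrays, 9.02 for Retnlb, was the largest among tested genes. Gaps followed of 8.32 for XIST, 6.90 for Gip (an incretin hormone gene) and 5.92 for a second Xist probe. Those of Tff2 (a stomach trefoil peptide, 5.83) and Parp16 (5.10) came from 1 array each. Tff2 was high on mutant replicate 3 only (2.89, others -4.64 to -2.94) and Parp16 on control replicate 1 only (5.29, others -0.07 to 0.19). The second Xist probe was well above background on 5 arrays, so its gap runs down to an undetected level. Gip was well above background on 5 arrays too, and its gap lies between control replicate 4 (1.85) and mutant replicate 3 (-5.05), its highest mutant. The low arrays of XIST stood at -7.47 to -5.95. Genes well above background on fewer than 4 arrays were not ranked. Among these was Y-linked Eif2s3y, at 2.37 to 2.62 on the 3 arrays that detected it and -6.93 to -5.91 elsewhere. These ranks use the values the family was chosen for and are given as a description.

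**Figure D2:**
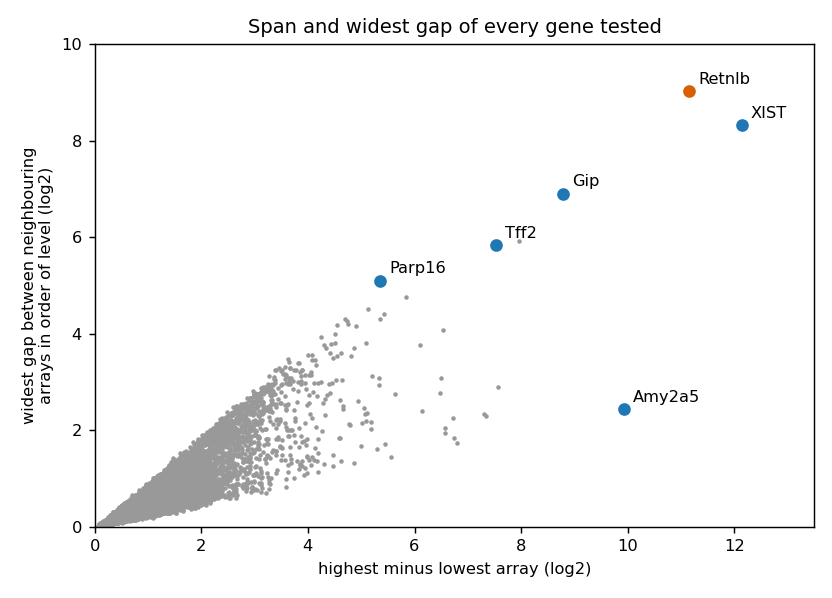
Every gene measured on all 8 arrays by its span, highest minus lowest array (horizontal axis, log2), and the widest gap between neighbouring arrays in order of level (vertical axis, log2). Retnlb (orange) has a gap of 9.02 and a span of 11.15, XIST a gap of 8.32 and a span of 12.13.

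Other tested genes with the same 3 high arrays had far smaller steps. Genes detected on those 3 arrays only were not tested, so they could not be counted here. Counting the tested genes whose 3 highest arrays were also control replicates 1 and 3 and mutant replicate 1 gave 1217 (4.81% of 25311). Among them the drop from the third to the fourth highest array was at least 1 for 1 gene only, Alb, which encodes serum albumin, with a drop of 1.06. Ahsg, a liver-secreted glycoprotein gene, followed with 0.742 and Cd5l with 0.491. Alb was well above background on 7 arrays, Ahsg on 6 and Cd5l on 5.

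Genes with the most similar profile were ranked by the root mean square distance between standardised levels, which is 0 for the same shape and 2 for a mirror image. The ranking took in genes with a span of at least 1. Nearest was Ces2g, a carboxylesterase gene, at a distance of 0.359. Its levels were -4.30, -5.48, -4.80 and -5.62 in controls and -4.68, -5.49, -5.25 and -5.21 in mutants, a span of 1.32 with 6 arrays well above background. The 3 arrays with high Retnlb were also its highest, but the drop to the fourth was 0.415.

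Fbxo44, an F-box gene, came second at 0.454 and was detected on all arrays. It stood at -1.55, -2.21, -1.88 and -2.31 in controls and at -1.39, -2.61, -2.52 and -2.65 in mutants. Mutant replicate 1 was the highest array, and the remaining 3 mutants were the lowest. Serpina3a, a serine protease inhibitor gene, was at 0.485 with the widest span of the 10 nearest, 1.91. Fndc5, which encodes the precursor of irisin, followed at 0.498, with levels of 2.84, 2.26, 2.99 and 2.41 in controls and 2.74, 2.25, 2.19 and 1.90 in mutants.

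Immune genes among the 10 were Cd5l, a secreted protein of macrophages, at 0.502, Zbp1, a nucleic acid sensor, at 0.519, and Hsh2d, an adaptor of blood cells, at 0.576. Zbp1 stood at -0.16, -0.90, -0.32 and -1.32 in controls and at -0.43, -1.28, -0.87 and -1.76 in mutants, so its 3 highest arrays were again those with high Retnlb. Otop1, a proton channel gene, was at 0.539, Cyp27b1, which encodes the enzyme that makes active vitamin D, at 0.562, and H2al1j, a histone H2A variant gene, at 0.592. All 10 spanned 1.06 to 1.91, against 11.15 for Retnlb. Fndc5, Zbp1, Otop1 and Hsh2d were well above background on all 8 arrays. Serpina3a and Cyp27b1 were so on 6, Cd5l on 5 and H2al1j on 4, so their spans and distances rest partly on undetected levels.

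**Figure D3:**
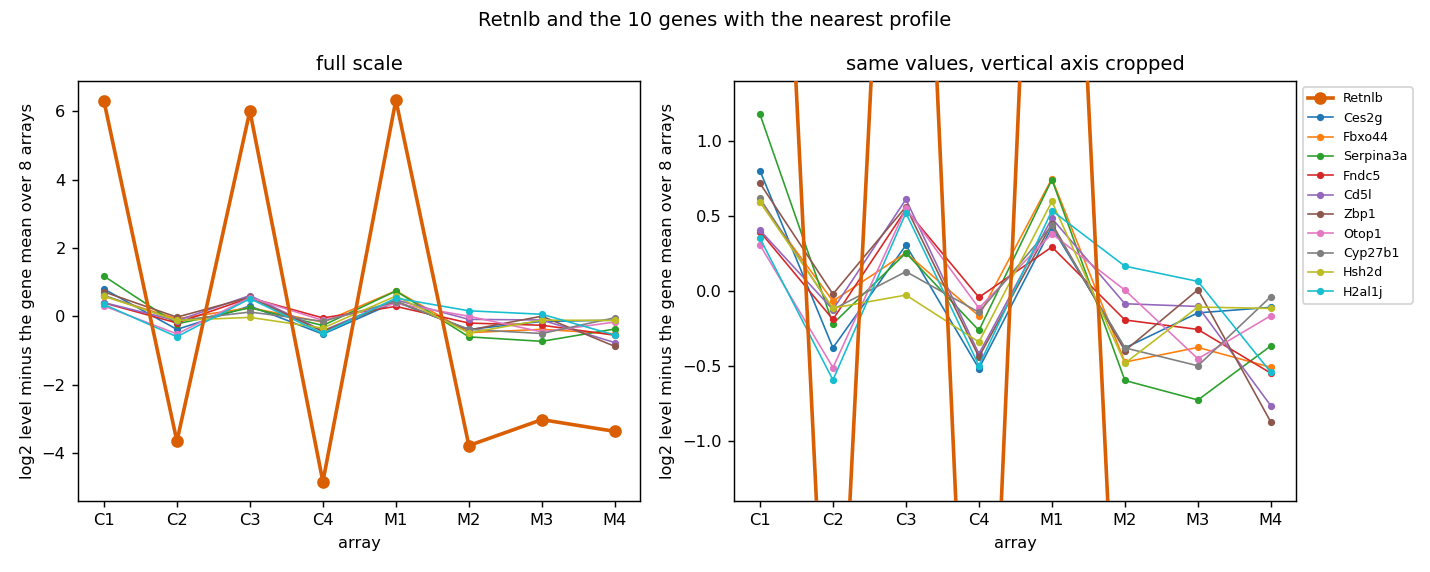
Log2 level minus the gene's own mean over the 8 arrays (vertical axis) for Retnlb (orange) and its 10 nearest genes, at full scale on the left and with the vertical axis cropped on the right, where Retnlb leaves the frame. All 10 are highest on C1, C3 and M1, with spans of 1.06 to 1.91 against 11.15 for Retnlb. They are the nearest among tested genes with a plain symbol and a span of at least 1.

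The order of these genes was not stable. Over 14 other settings Fbxo44 stayed among the 10 nearest in 12, Ces2g in 10, Serpina3a in 9, Cd5l in 8 and Zbp1 in 7, and the other 5 in 2 to 4. Without mutant replicate 1, 1 of the 10 stayed. At the opposite end were Cd276 (1.97), Epha7 (1.95), Kdm6a (1.93), Vmn2r113 (1.93) and Dnm3os (1.92). Kdm6a, an X-linked histone demethylase gene, stood at -1.71, -0.83, -1.76 and -1.06 in controls and -1.87, -0.89, -1.57 and -0.99 in mutants.

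Neighbours of Retnlb on the chromosome did not share its profile. Within 1000 kb on either side there were 22 other probes, of which 8 were tested, Retnlg among them. Spans ran from 0.316 for Ift57 to 2.81 for Cip2a, and 0 of the 8 had their 3 highest arrays where Retnlb did. The span of Cip2a came from mutant replicate 1 (-7.63, others -5.40 to -4.82), and Cip2a was well above background on 6 arrays. Around the Retnlb spot on the array, of 24 spots within 2 rows and columns, 16 held tested probes, with spans of 0.216 to 2.92 and 0 with the same 3 highest arrays.

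**Figure D4:**
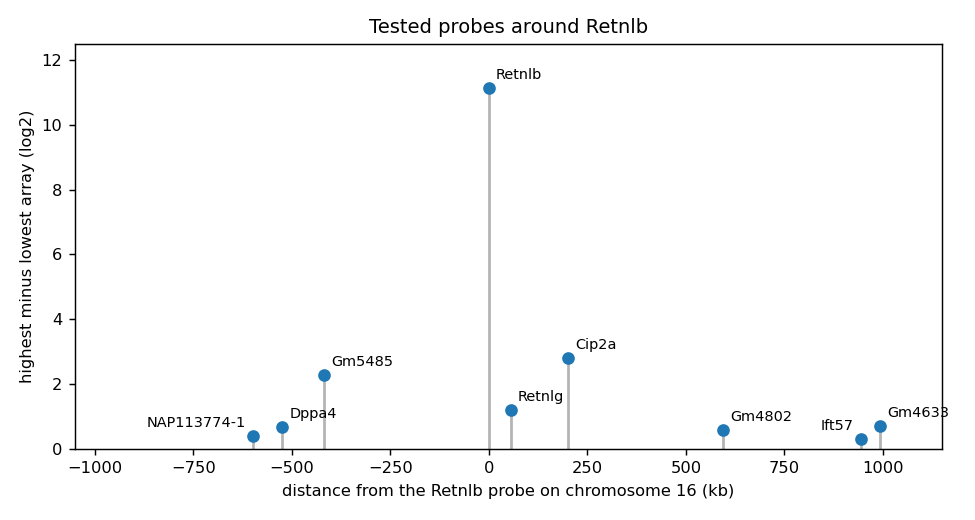
Span of each tested probe (vertical axis, highest minus lowest array, log2) by its distance from the Retnlb probe on chromosome 16 (horizontal axis, kb). Retnlb spans 11.15, Cip2a 2.81, Gm5485 2.29 and Retnlg 1.20. The span of Cip2a comes from M1 alone.

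The level of Retnlb was also set beside what is known of each embryo and array. Each row of the slide held both levels of Retnlb, with control replicate 1 and mutant replicate 1 high in the first and control replicate 3 in the other. By column of the slide, the 3 high arrays lay in columns 3 and 4 with mutant replicate 3, which was low, and the 4 arrays of columns 1 and 2 (control replicates 2 and 4, mutant replicates 2 and 4) were all low. Each column held 1 control and 1 mutant, and the part of the column in the levels was not tested. Among controls, replicate 2 alone had 2 floxed alleles and was low, and so was control replicate 4 with 1. Sex-linked genes were looked up after values had been seen. Transcripts of the Y-linked genes Ddx3y, Eif2s3y, Kdm5d and Uty were well above background on 3 arrays, control replicates 1 and 3 and mutant replicate 3. Xist was well above background on the other 5. Retnlb was thus high on 2 of the 3 arrays with Y-linked transcripts and on 1 of the 5 with Xist.

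The other genes of goblet cells, the known source of RELM-beta, varied far less over the arrays than Retnlb. All 12 goblet markers were tested, 0 passed between mutant and control, and their median difference was 0.06, against 0.031 over all genes tested. The widest span was 0.783 (Zg16). The summed level of a list is log2 of its tested genes added on the linear scale, so its brightest genes weigh most. For goblet genes it was 8.78, 8.87, 9.03 and 8.84 in controls and 9.16, 8.80, 8.83 and 8.81 in mutants. Mutant replicate 1 and control replicate 3, both high for Retnlb, had the highest sums of their groups, and control replicate 1, also high, the lowest of its own. The part of goblet cells in the Retnlb levels was not tested. Tff3, the trefoil peptide with the highest mean level of the list, stood at 6.88, 7.07, 7.26 and 7.11 in controls and at 7.44, 7.08, 7.04 and 6.92 in mutants. Clca1, a secreted goblet cell protein, stood at 6.87, 6.69, 6.80 and 6.74 in controls and 7.07, 6.58, 6.70 and 6.75 in mutants. Its 3 highest arrays were those with high Retnlb, within a span of 0.492. In such whole-tissue RNA, fewer cells of a type and less RNA per cell cannot be told apart.

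Of the type 2 cytokines, Il5 and Il13 were not well above background on any array and Il4 on 2 only. The epithelial cytokine genes Il33 and Tslp, which act upstream of them, were detected on all 8 arrays and differed by 0.15 and 0.27 between groups, neither past the threshold. Of 14 genes of the type 2 axis 11 were tested and 0 passed, and the widest span was 1.75 (Il4ra, the receptor subunit). Stat6, the transcription factor downstream of that receptor, lay among the nearest 5% of genes at a distance of 0.676, with a span of 0.311. Of the microbial and inflammatory response list 11 of 13 genes were tested and 0 passed. Il1b was the list gene nearest to Retnlb (0.493), at -4.54, -5.30, -4.51 and -5.19 in controls and -4.33, -4.79, -4.84 and -5.04 in mutants, a span of 0.976. Lcn2, the list's gene with the highest mean level, was -0.59 on average and differed by 0.08 between groups.

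Proposed resistin receptors and their partners were all detected. Of 7 genes, 0 passed in either direction, with a median difference of -0.14. Tlr4, a receptor for bacterial lipopolysaccharide, differed by -0.21 (SE 0.15, limma adjusted p = 0.821), and Cap1, a receptor described for human resistin, by -0.09 (SE 0.23, limma adjusted p = 0.924). Ly96, the co-receptor of Tlr4, had the difference farthest from 0 of the 7, -0.59 (SE 0.14, limma adjusted p = 0.539). Dcn, which encodes decorin, had the highest mean level and differed by -0.14 (SE 0.13, limma adjusted p = 0.821).

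Cell types known to make the other members were examined in the same way. Of 10 adipocyte genes 6 were tested and 0 passed, with a median difference of -0.01. Cidec, a lipid droplet gene and the list's gene with the highest mean level, and Fabp4, a fatty acid carrier gene, averaged 3.91 and 3.76 and were well above background on all 8 arrays, whereas Adipoq, Lep and Plin1 were so on none. Of 10 macrophage genes, 9 were tested, with 0 passing and spans of up to 1.03 (Lyz2). Of 11 neutrophil genes, 8 were tested and 0 passed, with a median difference of 0.13. S100a8 and S100a9, subunits of calprotectin, each differed by 0.60 (limma adjusted p = 0.654 and 0.434), Csf3r, the list's gene with the highest mean level, by -0.05 and Ltf by -0.03.

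Because RELM-beta is known best from the colon, markers of gut regions were also read. Of 11 colon genes 5 were tested, with spans of 0.54 to 0.903. Their summed level was 4.62 to 4.84 in controls and 4.67 to 5.14 in mutants, with mutant replicate 1 the highest. Hoxb13, Hoxd11 and Hoxd12 were among 5 colon genes not well above background on any array. Intestinal epithelial genes were detected throughout (9 of 9, spans of up to 1.01), as the label of the tissue has it. Their summed level was 8.92 to 9.03 in controls and 8.86 to 9.30 in mutants.

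The remaining lists covered other cells and neighbouring organs, and 0 of their genes passed. Of the Paneth and antimicrobial list 9 of 12 genes were tested, with Reg4 at the highest mean level (median difference 0.09, spans of up to 1.90). The 6 tested tuft genes had a median difference of 0.09, and the 7 of the mast cell and eosinophil list one of 0.44, with Ptgs1 and Kit at the highest mean level. Ileal genes (7 of 7 tested, led by Slc51a) had a median difference of 0.20 and genes of duodenum and jejunum (7 of 7, led by Fabp1) one of 5.4e-05. Erythroid genes (6 of 7, led by Hba-a1) stood at -0.04 and smooth muscle genes (7 of 7, led by Actg2) at 0.20. The ileal median hides 2 larger differences, of Fabp6 (2.33, limma adjusted p = 0.294) and Fgf15 (3.06, limma adjusted p = 0.513). Differences of the other ileal genes ran from -0.32 to 0.37.

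Stomach and pancreas genes were higher on some arrays than on others. Of 12 stomach genes 5 were tested, and their summed level was -1.13 to -0.998 in controls and -1.30 to 3.66 in mutants, with mutant replicate 3 the highest. Tff2 (2.89) and Gkn3 (2.33) were high on that array. Muc5ac (-3.88, others -4.24 to -3.54), Pgc (-2.94, others -3.32 to -2.96) and Gkn1 (-5.44, others -5.72 to -4.79) had no such level there. Of the untested genes, Tff1 (-0.17, others -7.73 to -6.26) and Muc6 (-2.97, others -8.49 to -7.39) were high there too. Each was well above background on 1 array. Gkn2 (-5.64, undetected) was also highest there, and Atp4a, Atp4b, Cblif and Sox2 were not. Acinar pancreas genes, of which 7 of 9 were tested, had a median difference of 1.28 and a summed level of 0.13 to 1.24 in controls and 1.57 to 3.90 in mutants. Amy2a5 differed by 6.09 (limma adjusted p = 0.150). Cela2a stood at -8.26 to -7.50 in controls and -5.11 to -2.12 in mutants. It was well above background on 4 arrays only and has no exact difference. Those of the other tested acinar genes ran from 0.76 to 1.30. The highest arrays for these lists, mutant replicates 3 and 4, were both low for Retnlb. Their part in the levels of the family was not tested.

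Over all 19 lists, 148 of 187 genes were tested. The nearest 5% of genes held 9 of them (6.08%), and 7 (4.73%) had the same 3 highest arrays as Retnlb, against 4.81% of all genes. The 9 were Clca1, Stat6, Saa3, Il1b, Ltf, Cidec, Hnf4a, Lct and Cybrd1. A span of at least 5 was reached by 6 list genes: Amy2a5, Gip, Tff2, Fgf15, Cela2a and Ghrl. None of these 6 had its 3 highest arrays where Retnlb did. In the endocrine list 6 of 9 genes passed, all lower in mutants: Gip, which was well above background on 5 of 8 arrays and has no exact difference, Ghrl by -4.86, Sst by -4.52, Nts by -3.98, Gcg by -3.42 and Cck by -2.49. These hormone genes separated mutant replicate 1 from every control, at the same time as its Retnlb level matched that of control replicates 1 and 3. In the other 18 lists 0 genes passed.

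**Figure D5:**
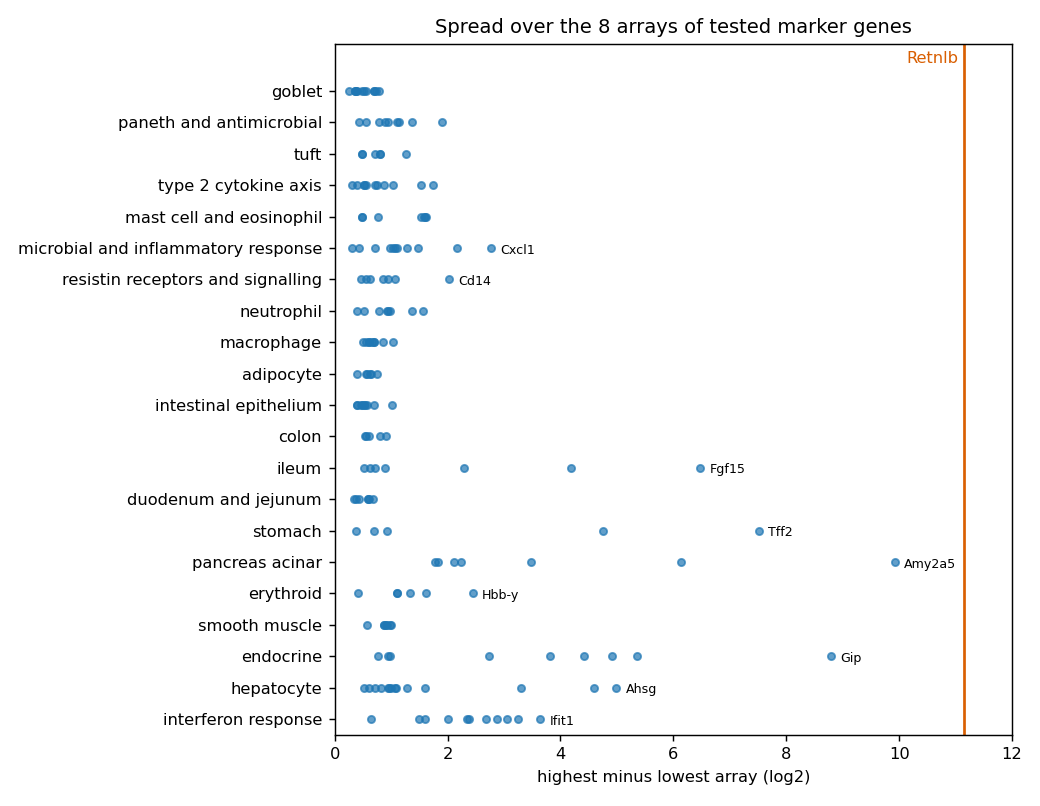
Span over the 8 arrays (horizontal axis, highest minus lowest array, log2) of each tested gene in the 19 marker lists and in the hepatocyte and interferon response lists, which were added after values had been seen. Each point is a gene, and the vertical line marks Retnlb at 11.15, to the right of every list gene, Amy2a5 (9.93) included.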

How the data were processed

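RNA from 8 samples was read on 1-colour Agilent arrays. Per the file headers, the authors scanned them with Feature Extraction 10.10.1.1 and annotated probes on build mm9; the deposited scanner values are linear spot intensity, background-corrected and not normalised between arrays. A deposited table of the authors' own linear intensity values, whose processing is not given in the sources used here, served as an alternative. From the deposited intensity, the log2 processed signal was computed relative to the 75th percentile of all 59305 non-control spots of that array. Outlier spots were left out after this scaling. Spots of a probe were averaged, and a probe was tested when well above background on at least 4 of 8 arrays, which kept 35472 and dropped 20209. Each gene kept the tested probe with the highest mean. Mutants and controls were tested in limma 3.58.1 (R 4.3.3, two-sided, Benjamini-Hochberg over 25330 genes), after a check on simulated data. The number of arrays limits the precision.

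Named genes were all members, and the 10 nearest to Retnlb and 5 most opposite with a plain symbol. Of each marker list they were the gene with the highest mean level, those that passed limma, those in the nearest 5% and up to 3 undetected genes. Others were picked after their values were seen, as regulators of Retnlb, as chromosome neighbours, or for an extreme span, gap, difference or level. The members and lists were chosen with earlier results of these data known. Of 55681 probes, 26582 were named through RefSeq accessions (used for names only), 492 through older symbols, and 28607 kept the file's name. Same-numbered control and mutant arrays gave r across genes of -0.09, 0.06, -0.07 and 0.09, and differently numbered ones -0.20 to 0.24. Replicate numbers were therefore not used as pairs, though such values cannot exclude shared litters. Alternatives were normexp background correction, quantile normalisation, the deposited table, other filters, array weights, blocks for replicate number and slide row, and leaving out each array.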

Additional observations from a re-analysis of the deposited data

Results flagged for a closer look

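Of 118 groups of 4 arrays (named genes in controls or mutants), in 15 the highest or lowest array passed Dixon's 95% limit for distance to its nearest neighbour, where chance flags about 1 in 20 groups of genes not picked by their values. Many of these genes, Retnlb and those nearest or opposite to it among them, were picked by their values, so the count is a description. Mutant replicate 1 accounted for 6 of these 15. For Retnlb it stood at 4.98, against -5.11 to -4.36 in the other mutants. It was also high for Fbxo44 (-1.39, others -2.65 to -2.52), Krt8, an epithelial keratin gene (7.33, others 6.95 to 6.98), and Cck (2.16, others 1.80 to 1.83), and low for Cd276 (-2.63, others -2.18 to -2.13) and Csf3r, a receptor of neutrophils (6.41, others 6.64 to 6.67).

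Mutant replicate 3 was far from the other mutants for Gkn3, a stomach gene (2.33, others -2.43 to -1.88), Xist (-7.34, others -0.66 to 0.62) and Hba-a1, an alpha-globin gene (6.68, others 7.29 to 7.37). Mutant replicate 2 was low for Ctrb1, a pancreatic chymotrypsinogen gene (0.25, others 1.18 to 1.37), and mutant replicate 4 for Irf7 (0.71, others 1.26 to 1.35). Among controls, replicate 2 was high for Kit (0.16, others -0.18 to -0.15). Control replicate 3 was high for Krt8 (7.01, others 6.87 to 6.88) and low for Actg2, a smooth muscle actin gene (6.44, others 6.94 to 6.98), and control replicate 4 was low for Saa3 (-5.14, others -4.23 to -4.06).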

How the results depend on the processing

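The 15 genes called between mutant and control became 27 with normexp background correction, 42 with array weights and 10 to 22 with 1 array left out. With the replicate number as a block, 7 were called, though these numbers are not known to pair the samples. Span of Retnlb was 8.74 to 11.15 and its widest gap 7.80 to 9.37 over the alternatives that recompute them. Of the 10 nearest genes, 3 stayed with normexp, with the deposited values and without a filter on dim probes, 6 after removal of group means, 0 without a minimum span, 7 with quantile normalisation and 1 to 7 with 1 array left out. Requiring detection on all 8 arrays removes Retnlb. Retn and Retnlg passed under no alternative (limma adjusted p at least 0.682). Retnlg changed sign with the deposited values (0.0045) and without control replicate 4 (0.17) or mutant replicate 2 (0.08), with a lowest value of -0.23 for a left-out array and of -0.37 with array weights. Retn changed sign without control replicate 2 (0.025) and ranged down to -0.36. The cause was not tested. Dim probes have little signal over background, and normexp compresses their differences.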

Other observations

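Interferon response and hepatocyte genes were read in lists added after their values were seen, and their closeness to Retnlb is a description. Of 11 interferon response genes, all tested, 3 lay among the nearest 5% of genes (Ddx58, Zbp1 and Irf7) and 0 passed between mutant and control, with a median difference of -0.68. Ddx58, which encodes the RNA sensor RIG-I, was at a distance of 0.348, with levels of 2.77, 2.16, 2.66 and 2.16 in controls and 2.69, 2.37, 2.37 and 2.13 in mutants, a span of 0.643. The summed level of the list was 6.11, 4.97, 5.49 and 4.67 in controls and 4.67, 4.84, 5.14 and 4.16 in mutants. Mutant replicate 1, high for Retnlb, was thus not high for this sum.

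Of 14 tested hepatocyte genes, 3 had the same 3 highest arrays as Retnlb (Alb, Ahsg and Igfbp1) and 0 passed. Alb stood at -2.63, -5.35, -2.84 and -4.37 in controls and at -2.59, -3.90, -7.18 and -5.01 in mutants, and Ahsg at -1.69, -5.78, -2.13 and -3.87 in controls and -1.31, -2.87, -6.30 and -4.11 in mutants. Alb was well above background on 7 arrays and Ahsg and Igfbp1 on 6 each. The summed level of the list was 7.43 to 7.88 in controls and 7.31 to 7.63 in mutants. Afp (mean 6.65) and Serpina1a (5.92) lead that sum, and Alb (-4.23), Ahsg (-3.51) and Igfbp1 (-5.34) add little to it. The part of hepatocyte genes in the Retnlb levels was not tested.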
